A study of Mus musculus with 32 samples.

Results

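Cerebral cortex RNA was compared between mice that carry distal chromosome 16 genes on a freestanding additional chromosome (Ts65Dn;Df(17)2) and mice that carry them as a tandem duplication within chromosome 16 (Dp(16)1/Df(16)8). The libraries were taken by their genotype labels: 10 of Ts65Dn;Df(17)2 and 10 of Dp(16)1/Df(16)8, 20 of the 32 libraries in the series. Each library came from 1 numbered animal aged 6 weeks, and by label each genotype had 5 females and 5 males. The 12 +/+ libraries (6 of each sex) stayed out of the contrast; they entered the fit for its estimate of spread, and their values are given as a reference level. The series title states the question: which effects of an additional chromosome depend on gene dosage and which do not.

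As background, Ts65Dn mice inherit a small additional chromosome that carries the distal part of chromosome 16 on a centromere and pericentromeric stretch of chromosome 17. Many of the chromosome 16 genes on it have orthologues on human chromosome 21. It therefore brings an additional copy of proximal chromosome 17 genes that have no counterpart on human chromosome 21, and Df(17)2 is a deletion of chromosome 17 genes that is combined with it. Dp(16)1 duplicates a longer piece of chromosome 16, from Lipi to Zbtb21, without an additional centromere, and Df(16)8 is a deletion combined with it. Both genotypes are thus meant to hold the genes from Mrpl39 to Zbtb21 in the same raised number, and the genes of Lipi to Ncam2 and of proximal chromosome 17 in the normal number. The labels do not give the breakpoints. Regions were set here by those genes in GRCm38: chromosome 16, 84717576 to 97962622 (Mrpl39 to Zbtb21, 77 genes tested), chromosome 16, 75540514 to 81626828 (Lipi to Ncam2, 22 tested), and proximal chromosome 17 up to 8986648, where Pde10a ends (34 tested). Since mice of both genotypes carry a targeted deletion as well as a gain, neither is a model of trisomy alone, and the strain background was not given in the sources used here.

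Total counts per library ran from 6392530 to 11189500 in Ts65Dn;Df(17)2, from 5795480 to 9149200 in Dp(16)1/Df(16)8 and from 6375700 to 8532010 in +/+. Dp(16)1/Df(16)8 replicate 2, labelled female, held Y-linked transcripts and few Xist counts; counting it as male gave the same 8 calls. The animal numbers of the genotypes run in ranges that overlap little. Only the range 32333 to 32373 held both aneuploid genotypes, with 8 Ts65Dn;Df(17)2, 3 Dp(16)1/Df(16)8 and 6 +/+ animals; what a number stands for is not in the labels. Summed striatal neuron markers varied widely in both genotypes, from 789 to 3409 in units of CPM (TMM-scaled counts relative to library size) in Ts65Dn;Df(17)2 and from 330 to 3663 CPM in Dp(16)1/Df(16)8. With the mean striatal level as a further term the same 8 genes were called. In whole tissue, fewer cells of a type and less RNA per cell cannot be told apart.

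Few genes separated the genotypes. Of 16042 genes tested, 8 (0.0499%) had an adjusted p under 0.05 (quasi-likelihood F test of edgeR, p-values adjusted by Benjamini-Hochberg), 7 of them higher (0.0436%) and 1 lower (0.00623%) in Ts65Dn;Df(17)2. Outside the 3 regions there were 6 such genes: Tyr, C87487, Gm49806, A730009L09Rik and B230307C23Rik, which were higher, and Gm28437, which was lower. The other two, Gm21926 and Pisd-ps2, lie in the proximal chromosome 17 region and were higher. None of the 77 genes from Mrpl39 to Zbtb21 and none of the 22 from Lipi to Ncam2 was called. Across all genes 658 (4.1%) had an unadjusted p under 0.05, and the median log2 difference was 0.00025.

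**Figure D1:**
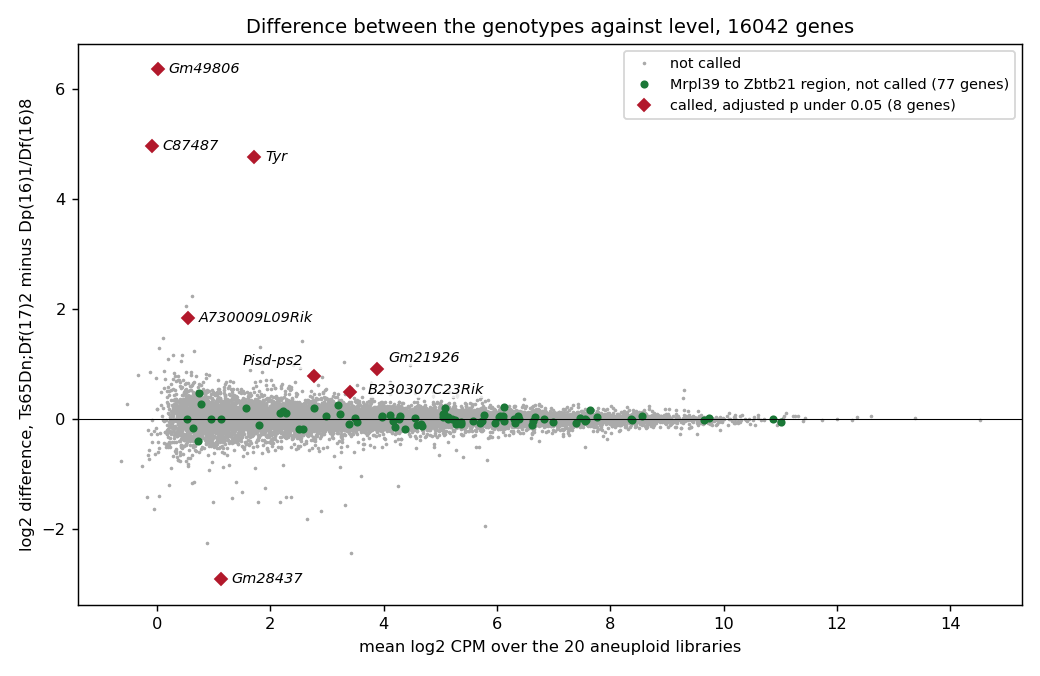
The log2 difference (Ts65Dn;Df(17)2 minus Dp(16)1/Df(16)8, y axis) of 16042 genes is plotted against their mean log2 CPM over 20 libraries (x axis). Red diamonds mark the 8 called genes and green points the 77 genes from Mrpl39 to Zbtb21, which lie between -0.41 and 0.46.

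The precision of the comparison is given by the intervals. The 95% interval of the difference lay within a fold of 1.5 either way for 13541 of 16042 genes (84.4%) and within a fold of 2 for 15524. Among 6023 genes at 32 CPM or more, 5854 lay within a fold of 1.5. A fold of 1.5 is the ratio that 1 additional copy of a gene would give against the normal number if output followed copy number.

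The genes from Mrpl39 to Zbtb21 were at nearly the same level in both genotypes. Their log2 differences had a median of -0.0082, against 0.00025 over all genes, and 34 of 77 were positive. As a fold per animal (the median over the 77 genes relative to their mean in the 20 libraries), Ts65Dn;Df(17)2 animals had 0.98 at the lowest, 1.00 at the median and 1.05 at the highest, and Dp(16)1/Df(16)8 animals 0.976, 1.01 and 1.03. The ranges overlapped almost entirely. The difference of the per-animal log2 values was -0.011 (95% interval -0.035 to 0.013, two-sided permutation test over 10 and 10 animals, p = 0.355). As a fold, the interval of this difference in per-animal medians ran from 0.976 to 1.01.

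Single genes of this region had wider intervals than the region as a whole. App, which encodes the amyloid precursor protein, stood at 1855, 2029 and 2178 CPM (lowest, median, highest) in Ts65Dn;Df(17)2 and at 1904, 2124 and 2352 CPM in Dp(16)1/Df(16)8, with 1257 to 1605 CPM in +/+. The aneuploid genotypes overlapped and both lay above every +/+ animal; the fold between them was 0.962 (95% interval 0.908 to 1.02). Dyrk1a, a protein kinase gene that acts by dose in brain growth, had 175, 189 and 200 CPM against 169, 194 and 207 CPM, and a fold of 0.991 (95% interval 0.941 to 1.04). Sod1, which encodes cytosolic superoxide dismutase, had 109, 122 and 143 CPM against 104, 132 and 146 CPM, and a fold of 0.962 (95% interval 0.89 to 1.04).

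Genes of other roles in the region gave the same picture. The interferon receptor subunit gene Ifnar1 was at 77.4 ± 3.68 CPM (SD, n = 10) in Ts65Dn;Df(17)2 and 82.1 ± 5.23 CPM (SD, n = 10) in Dp(16)1/Df(16)8, a log2 difference of -0.086 (SE 0.037) that did not pass the test. Its partner Ifnar2 differed by 0.061 (SE 0.071) on the log2 scale. Rcan1, an inhibitor of calcineurin, differed by 0.050 (SE 0.065), and the endocytic genes Itsn1 and Synj1 by 0.052 (SE 0.030) and -0.033 (SE 0.066). The chromatin genes Brwd1 and Hmgn1 differed by -0.013 (SE 0.032) and 0.065 (SE 0.10). The oligodendrocyte lineage factor Olig2 differed by -0.18 (SE 0.11), and Kcnj6, a potassium channel subunit gene, by -0.12 (SE 0.14). All 20 genes of the region that were listed for naming remained uncalled.

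Urb1, a ribosome assembly gene, had the smallest p of the region. It ran from 30.1 to 44.3 CPM in Ts65Dn;Df(17)2 (36.3 ± 4.35, SD, n = 10) and from 28.9 to 34.3 CPM in Dp(16)1/Df(16)8 (31.6 ± 2.07, SD, n = 10), so that the ranges overlapped. Its log2 difference of 0.198 (SE 0.057) had an adjusted p of 0.762 (quasi-likelihood test, edgeR). Of the 77 genes, 4 had an unadjusted p under 0.05 (Urb1, Usp16, Ifnar1 and Cfap298), 5.19% against 4.1% over all genes. The interval lay within a fold of 1.5 for 68 of the 77 (84.4% over all genes) and within a fold of 2 for all 77. The 9 with wider intervals were Ripk4, Gm41504, 4932438H23Rik, B3galt5, Gm16310, 2810407A14Rik, Pcp4, Cbr3 and Clic6. For Pcp4, a calmodulin regulator gene abundant in striatum and deep cortical layers, single animals ran from 125 to 314 CPM and from 87.1 to 260 CPM. Clic6, which choroid plexus expresses strongly, ran from 10.1 to 27.2 CPM and from 3.05 to 39.4 CPM.

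For the regions that the deletions are meant to bring back to normal number, the median gene per animal did not differ beyond its error, while single genes of proximal chromosome 17 did. Across Lipi to Ncam2 the per-animal log2 difference was -0.0031 (95% interval -0.13 to 0.12; two-sided permutation test, p = 0.959). Ncam2, a neural adhesion molecule gene at the region's distal end, was at 246 ± 30.1 CPM in Ts65Dn;Df(17)2 and 251 ± 50.4 CPM in Dp(16)1/Df(16)8 (SD, n = 10 each). Usp25, a deubiquitinase gene, differed by a fold of 1.00 (95% interval 0.892 to 1.13), and Nrip1, a nuclear receptor corepressor gene, by 0.997 (95% interval 0.898 to 1.11). Across proximal chromosome 17 the per-animal difference was 0.039 (95% interval -0.021 to 0.098; two-sided permutation test, p = 0.188). Taking the mean over the 34 genes, the 2 called genes among them, in place of the median gave 0.10 (permutation p = 0.00533). The share of the 2 called genes in that value was not tested. An unadjusted p under 0.05 was found for 8 of these 34 genes and for 0 of the 22 from Lipi to Ncam2, beside 4.1% over all genes; of the 8, the differences of Gm21926, Pisd-ps2, Scaf8, Gm49797 and Tagap were positive and those of Tmem181a, Tmem181b-ps and Zdhhc14 negative.

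In proximal chromosome 17 the called genes stand at the region's centromeric side. Gm21926, a transcribed processed pseudogene (chromosome 17, 3103175 to 3114795, minus strand), had 16.3, 20.3 and 22.6 CPM in Ts65Dn;Df(17)2 and 7.26, 10.8 and 14.2 CPM in Dp(16)1/Df(16)8. The ranges did not overlap, and the 12 +/+ animals, at 8.07 to 14.5 CPM, lay below every Ts65Dn;Df(17)2 animal. The log2 difference was 0.90 (SE 0.096), a fold of 1.86 (95% interval 1.62 to 2.13), with an adjusted p of 4.24e-07 (quasi-likelihood test, edgeR). Pisd-ps2, a transcribed pseudogene of the phosphatidylserine decarboxylase gene Pisd (chromosome 17, 3076578 to 3084183, minus strand), had 5.82, 8.87 and 10.1 CPM against 3.57, 5.09 and 7.21 CPM. These ranges overlapped by the lowest Ts65Dn;Df(17)2 animal. Its log2 difference was 0.78 (SE 0.12), a fold of 1.72, with an adjusted p of 0.000499.

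Pisd-ps2 resembles other genes closely enough that reads can be split among them. The longest match of its 1175-base transcript was with Pisd-ps1, 1005 identical bases in 1061 aligned (94.7%). A stretch of 90 bases from GENCODE M21 transcripts, bases 128 to 217 of Pisd-ps2 and 54 to 143 of Pisd-ps1, shows how few positions tell them apart; capitals mark the 2 bases that differ.
Pisd-ps2: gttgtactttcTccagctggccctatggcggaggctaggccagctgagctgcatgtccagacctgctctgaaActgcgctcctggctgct
Pisd-ps1: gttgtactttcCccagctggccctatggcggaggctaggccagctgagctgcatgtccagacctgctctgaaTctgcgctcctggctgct
Pisd-ps1 itself was at 5.09 ± 1.31 CPM in Ts65Dn;Df(17)2 and 4.81 ± 0.897 CPM in Dp(16)1/Df(16)8, a log2 difference of 0.077 (SE 0.17), and Pisd differed by -0.16 (SE 0.066); neither passed the test. Gm21926 matched Fech, the ferrochelatase gene, at 692 of 759 aligned bases, and Fech differed by 0.036 (SE 0.050). The values of Pisd-ps2 and Gm21926 are uncertain to the extent that the authors' counting shared reads between copies.

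The genes beside the called pair had smaller differences, none called. Scaf8, which codes for an RNA polymerase II binding protein and starts just past Gm21926, was at 97.2 ± 3.78 CPM against 91.2 ± 6.73 CPM (SD, n = 10 each), a log2 difference of 0.092 (SE 0.037) that did not pass the test. The next gene, the non-coding Gm49797, was at 11.8 ± 1.49 CPM against 10.1 ± 1.92 CPM, a difference of 0.23 (SE 0.10) that did not pass either. For both, all 10 Ts65Dn;Df(17)2 animals lay above the Dp(16)1/Df(16)8 mean. Further along, Arid1b, a chromatin remodelling gene, differed by 0.015 (SE 0.039), and Tiam2, a Rac activator gene, by 0.098 (SE 0.087). Tmem181a had the most negative difference of the region, -0.57 (SE 0.17), with an adjusted p of 0.801. Pde10a, a phosphodiesterase gene of striatal neurons at the distal end, ran from 286 to 1153 CPM and from 124 to 1298 CPM, so the spread between animals set its interval, a fold of 0.615 to 2.01.

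**Figure D2:**
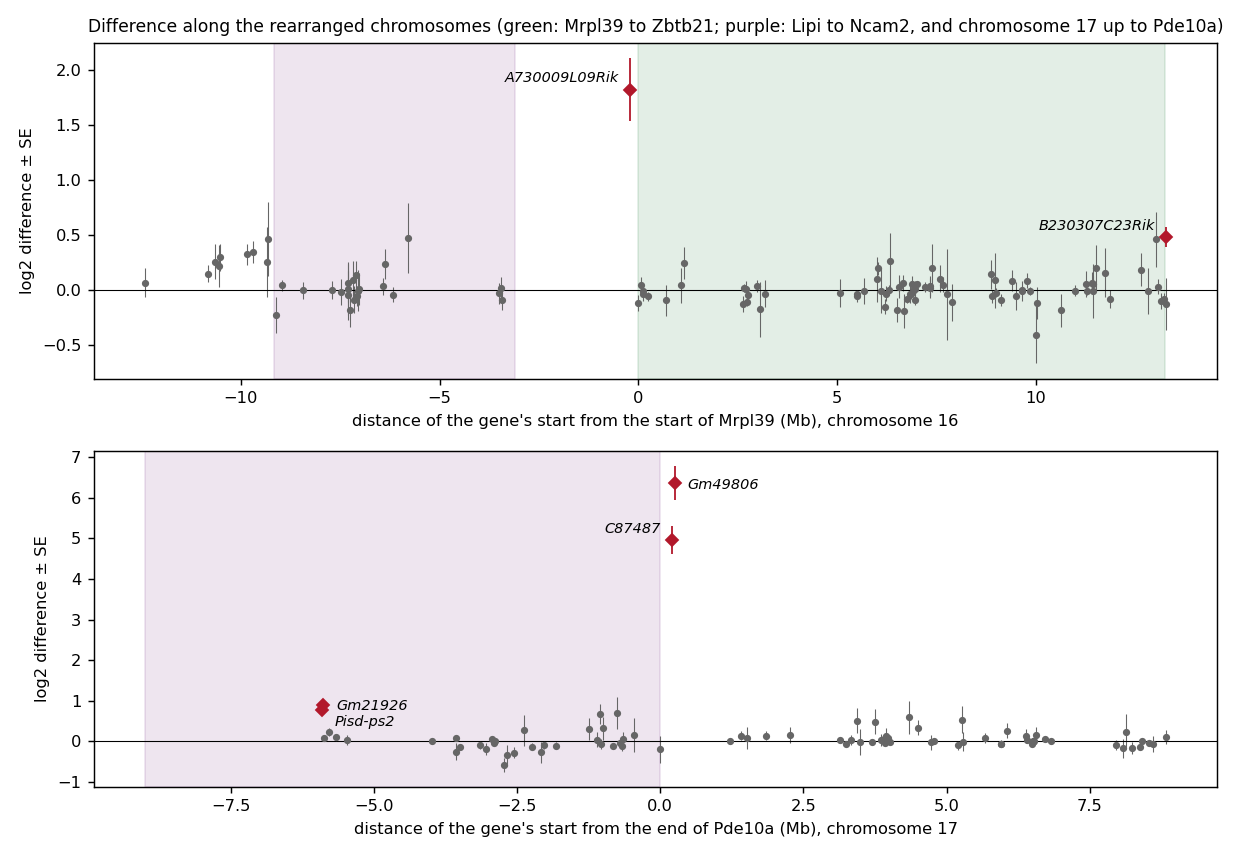
Log2 differences (Ts65Dn;Df(17)2 minus Dp(16)1/Df(16)8) with their SE are plotted along chromosome 16 by distance from the start of Mrpl39 and along chromosome 17 by distance from the end of Pde10a, both in Mb. Red diamonds mark called genes: A730009L09Rik and B230307C23Rik sit on either side of the green Mrpl39 to Zbtb21 region, and C87487 and Gm49806 just past the purple chromosome 17 region.

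All 4 of the remaining called genes on chromosomes 16 and 17 lay just outside a region's end. C87487, a long intergenic non-coding RNA (chromosome 17, 9189126 to 9223664, plus strand) starts 202 kb past the end of Pde10a. It had 13 to 29 counts in each Ts65Dn;Df(17)2 library (median 21) and 0 to 2 in each Dp(16)1/Df(16)8 library, 213 and 5 counts in all. The groups did not overlap. Relative to TMM-scaled library size, the count ratio was 38.1 (95% interval 16.1 to 119, exact binomial). Gm49806, a transcript of provisional annotation (class TEC) 260 kb past Pde10a (chromosome 17, 9246550 to 9248548, plus strand), had 15 to 44 counts (median 29.5) against 0 or 1, 287 and 2 counts in all, a ratio of 128 (95% interval 35.2 to 1066). These intervals cover counting error only. Adjusted p was 1.81e-11 for C87487 and 4.05e-12 for Gm49806 (edgeR's quasi-likelihood test). The 12 +/+ libraries held 1 and 5 counts of these genes, as few as the duplication.

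The other genes of that stretch did not stand apart. The gene nearest to Pde10a, 1700010I14Rik, lies 1.69 kb past it and had 108 counts in Ts65Dn;Df(17)2 and 111 in Dp(16)1/Df(16)8, a ratio of 0.871 (95% interval 0.662 to 1.15). Between it and C87487, 6530411M01Rik had 9 and 15 counts, too few for the test. Past Gm49806, Qk, an RNA-binding protein gene of glia, had a log2 difference of 0.012 (SE 0.062). Of the 11 annotated genes from the end of Pde10a to Pabpc6, 3 were tested.

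At the proximal side of Mrpl39, A730009L09Rik (chromosome 16, 84515121 to 84523888, plus strand) ends 194 kb before it and lies inside the Dp(16)1 duplication as described, between Ncam2 and Mrpl39. It had 8 to 31 counts in each Ts65Dn;Df(17)2 library (median 20.5), 0 to 12 in each Dp(16)1/Df(16)8 library (median 5) and 1 to 6 in each +/+ library (median 2). The aneuploid genotypes overlapped in counts. Its log2 difference was 1.83 (SE 0.29), a fold of 3.54 (95% interval 2.36 to 5.32), with an adjusted p of 0.000921 (quasi-likelihood test, edgeR). Dp(16)1/Df(16)8 libraries held 2.06 times the counts of +/+ libraries (95% interval 1.29 to 3.35, exact binomial, counting error only). It was the only tested gene of 24 annotated between Ncam2 and Mrpl39; its pseudogene neighbour Gm6032 had 8 counts against 3, a ratio of 2.39 whose interval includes 1.

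At the distal side, B230307C23Rik (chromosome 16, 97997315 to 98031801, plus strand) starts 34.7 kb past the end of Zbtb21. It had 8.40, 12.3 and 15.2 CPM in Ts65Dn;Df(17)2, 7.06, 8.77 and 10.5 CPM in Dp(16)1/Df(16)8 and 6.25 to 9.90 CPM in +/+. The lowest Ts65Dn;Df(17)2 animal, replicate 1, lay within the Dp(16)1/Df(16)8 range and the other nine above it. The log2 difference was 0.48 (SE 0.094), a fold of 1.40 with an adjusted p of 0.0281 (quasi-likelihood test). This call rested on the full set: leaving out 1 library at a time ended it in 14 of 20 fits, with adjusted p from 0.00158 to 0.102 (edgeR's quasi-likelihood test), and limma voom gave an adjusted p of 0.0537. Its overlapping neighbour A630089N07Rik, the last tested gene of the chromosome, had 289 and 283 counts and a log2 difference of -0.12 (SE 0.24). Zbtb21, the last gene of the duplicated region, differed by -0.081 (SE 0.052).

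On the proximal side of Lipi no gene was called. The nearest 9 tested genes, within 4 Mb, had log2 differences from 0.068 for Robo1 to 0.46 for Gm49677, all positive; the group was singled out after its values were seen. The nearest with a small p were the non-coding A630036G19Rik, at 64.7 ± 9.31 CPM against 51.0 ± 6.91 CPM (SD, n = 10 each), and Gm49674, at 36.0 ± 5.55 CPM against 28.8 ± 3.51 CPM, both with an adjusted p of 0.762 (quasi-likelihood test, edgeR). The axon guidance receptor gene Robo2 differed by 0.15 (SE 0.076). Levels of A630036G19Rik and Gm49674 in +/+ were 67.6 and 38.3 CPM, nearer to Ts65Dn;Df(17)2. The +/+ mean was also nearer to Ts65Dn;Df(17)2 for Robo2, Gm49678 and Gm49677. For Robo1, Gm49660, Gm49659 and Gm49658 it was nearer to Dp(16)1/Df(16)8.

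Tyr, which encodes tyrosinase, the enzyme that starts melanin synthesis in pigment cells, gave the smallest p of all genes. It lies on chromosome 7 (87424771 to 87493512, minus strand), on neither rearranged chromosome. Ts65Dn;Df(17)2 libraries had 75, 119.5 and 168 counts (lowest, median, highest), Dp(16)1/Df(16)8 libraries 2, 3.5 and 7, and +/+ libraries 0, 0 and 3. No library of one aneuploid genotype came near the other. The ratio of counts was 27.8 (95% interval 20.1 to 39.4, exact binomial), and the log2 difference 4.75 (SE 0.20) with an adjusted p of 1.99e-17. The Dp(16)1/Df(16)8 libraries, with 38 counts in all, also held 5.76 times the level of +/+ (95% interval 2.65 to 14.3). Both intervals are of pooled counts, and so cover counting error and not the spread between animals.

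Other pigment cell genes were called in neither direction, and most had few counts. Of 14 listed genes 5 passed the low-count filter, and besides Tyr none was called: Mitf, the melanocyte transcription factor that other cells also use, had a log2 difference of -0.0049 (SE 0.12), Sox10 -0.0081 (SE 0.13), Ednrb 0.12 (SE 0.13) and Gpnmb 0.53 (SE 0.28). Tyrp1, which encodes a melanosome enzyme related to tyrosinase, had 0 to 7 counts in Ts65Dn;Df(17)2 libraries (18 in all, in 8 of 10) and 0 to 2 in Dp(16)1/Df(16)8 libraries (3 in all, in 2 of 10), a ratio of 5.37 (95% interval 1.57 to 28.5, counting error only) in the direction of Tyr; it did not pass the low-count filter. Dct had 25 and 13 counts in all, a ratio of 1.72 (0.848 to 3.67), and Pmel 13 and 9, a ratio of 1.29 (0.511 to 3.43). Slc45a2 and Mlana had 0 or 1 in each aneuploid library. The agouti gene, symbol a, which sets the type of melanin in hair, had 0 to 9 counts in Ts65Dn;Df(17)2 libraries and 2 to 16 in Dp(16)1/Df(16)8 libraries, 44 and 87 in all, a ratio of 0.453 (95% interval 0.308 to 0.658, counting error only). All 12 +/+ libraries had 0 counts of agouti. It did not pass the low-count filter, and it was not among the genes called without that filter. As background, Tyr and agouti sequences serve as coat colour tags in vectors for mouse chromosome engineering; the labels do not say whether these alleles carry one, and this was not tested.

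The genes beside Tyr on chromosome 7 were not called. Of 29 other genes tested within 3 Mb of its start none was called, with log2 differences from -0.27 to 0.61. The nearest, the glutamate receptor gene Grm5, was at 534 ± 36.4 CPM in Ts65Dn;Df(17)2 and 520 ± 79.9 CPM in Dp(16)1/Df(16)8 (SD, n = 10 each).

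**Figure D3:**
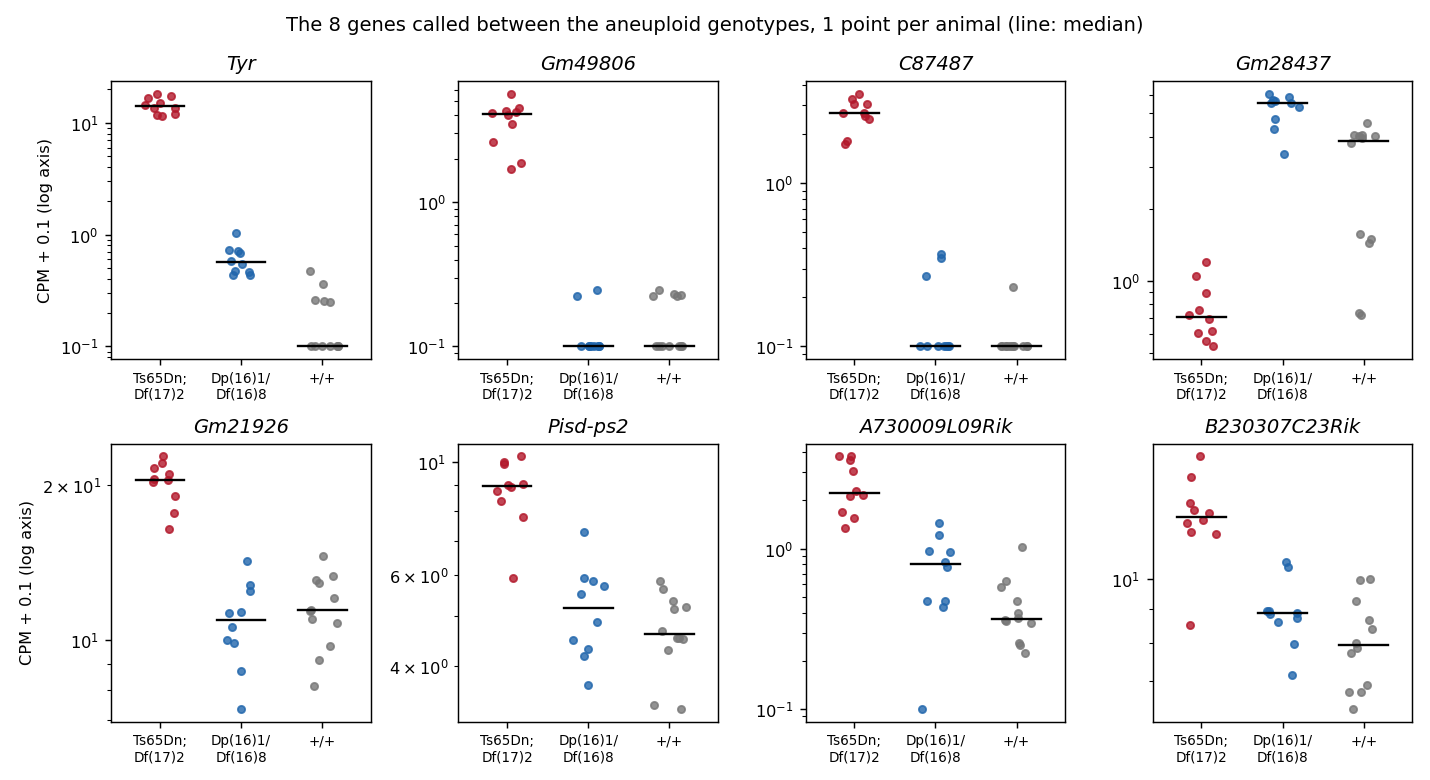
Each panel shows 1 of the 8 called genes as CPM plus 0.1 on a log axis, 1 point per animal in 3 genotypes, with a line at the median. Tyr, Gm49806, C87487, Gm28437 and Gm21926 show no overlap between the aneuploid genotypes, and the +/+ animals of Gm28437 fall in both ranges.

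Gm28437 was the only gene called lower in Ts65Dn;Df(17)2. It is an unprocessed pseudogene on chromosome 1 (24613189 to 24613971, minus strand) that copies the mitochondrial cytochrome c oxidase subunit gene mt-Co3. Its 783-base transcript is identical to mt-Co3 over all 783 bases. The first 90 bases of both, from the GENCODE M21 transcripts, are given to show that no read from within them can tell the 2 genes apart.
Gm28437: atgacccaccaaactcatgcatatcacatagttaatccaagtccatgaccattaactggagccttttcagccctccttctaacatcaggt
mt-Co3: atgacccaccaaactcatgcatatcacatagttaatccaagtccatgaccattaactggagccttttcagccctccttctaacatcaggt
Ts65Dn;Df(17)2 libraries had 3, 5 and 8 counts of Gm28437 (lowest, median, highest) and Dp(16)1/Df(16)8 libraries 25, 38 and 50. The groups did not overlap, and Dp(16)1/Df(16)8 held 7.78 times the level (95% interval 5.83 to 10.5, exact binomial, counting error only). The log2 difference was -2.92 (SE 0.29), with an adjusted p of 1.04e-07 (quasi-likelihood test, edgeR).

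The +/+ animals also fell into 2 sets. Of 12, 5 had 4 to 10 counts and 7 had 26 to 37, so that both levels occurred without any aneuploidy. The low counts ran with animal number. Every library numbered 27950 to 27951 or 32350 to 32395, 10 Ts65Dn;Df(17)2 and 5 +/+, had 3 to 10 counts. Each of the other 17 had 25 to 50. These number bounds were set after the counts were seen, and cut through the number ranges 32333 to 32373 and 32395 to 32406. Ts65Dn;Df(17)2 animals all fall in the first set and Dp(16)1/Df(16)8 animals all in the second, so genotype and number cannot be told apart for this gene. Levels of mt-Co3 itself were 5 to 18 and 5 to 15 counts, while mt-Co1 had 56173 to 117109 counts in each library; mt-Co3 did not differ between the genotypes beyond its error (log2 -0.26, SE 0.24). The neighbouring pseudogenes Gm10925 and Gm28661 had 0 to 15 counts in the aneuploid libraries. Their medians were 3.5 and 4.5 in Ts65Dn;Df(17)2 and 4 and 4.5 in Dp(16)1/Df(16)8. Gm28438 had 0 to 5 counts (median 0) in Ts65Dn;Df(17)2 and 0 to 8 (median 3.5) in Dp(16)1/Df(16)8. Gm29216 had 0 to 6 (median 2.5) and 1 to 5 (median 3). None of these neighbours passed the low-count filter.

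**Figure D4:**
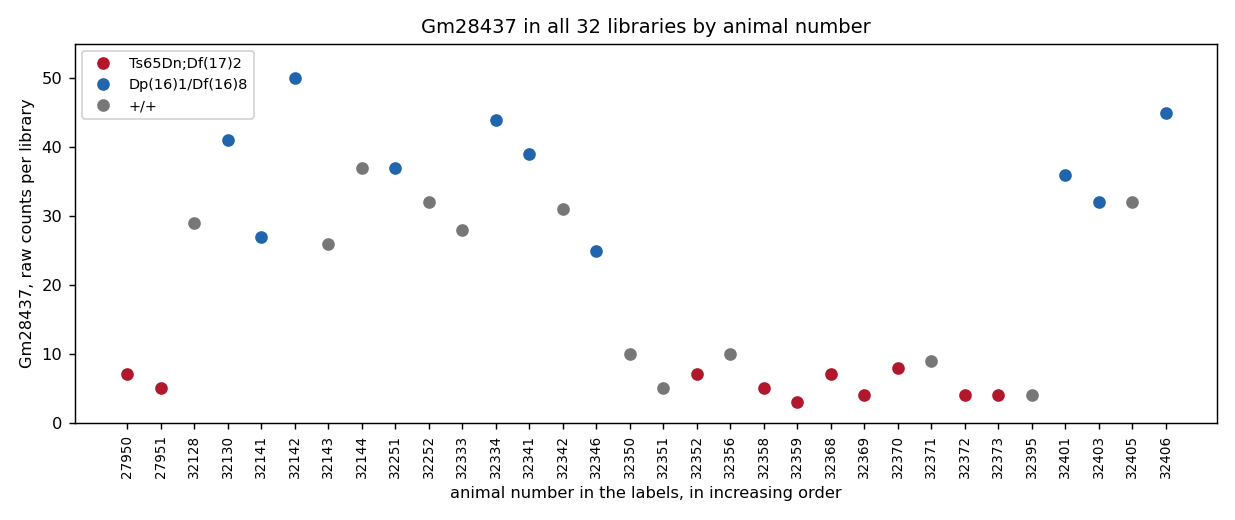
Raw counts of Gm28437 (y axis) are shown for 32 libraries in order of animal number (x axis), coloured by genotype. The 15 libraries numbered 27950 to 27951 and 32350 to 32395 have 3 to 10 counts and the other 17 have 25 to 50.

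Within the number range that held both genotypes (8 and 3 animals, with 6 +/+), each of the 8 genes kept its direction. These animals are part of the set from which the 8 genes were called, so the kept directions are not independent support. Inside this range the 3 Dp(16)1/Df(16)8 animals were numbered 32334 to 32346 and the 8 Ts65Dn;Df(17)2 animals 32352 to 32373. Between these 2 genotypes, number and genotype cannot be told apart there either. The +/+ animals 32350, 32351, 32356 and 32371 lie among or beside the Ts65Dn;Df(17)2 numbers. They had 0 or 1 counts of Tyr and of Gm49806 and 0 of C87487. Gm21926 was at 10.7 to 14.5 CPM in them, and Gm28437 had 5 to 10 counts. A contrast with these +/+ animals alone was not tested. Tyr differed by 4.47 on the log2 scale, Gm49806 by 7.83, C87487 by 4.41, Gm28437 by -3.01 and Gm21926 by 0.84, with adjusted p from 1.2e-06 to 0.0391 (edgeR's quasi-likelihood test). Pisd-ps2 (0.79), A730009L09Rik (2.26) and B230307C23Rik (0.46) did not pass the test there, with adjusted p of 0.307, 0.372 and 0.999. With number ranges as terms in all 32 libraries, Pisd-ps2 passed at 0.0463, and A730009L09Rik and B230307C23Rik did not, at 0.126 and 0.506.

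No protein-coding gene with an established name, other than Tyr, passed the test. Closest was Aass, which encodes the first enzyme of lysine breakdown, at 2.81, 4.28 and 6.19 CPM in Ts65Dn;Df(17)2 and 4.38, 6.56 and 8.30 CPM in Dp(16)1/Df(16)8. The ranges overlapped; the log2 difference was -0.55 (SE 0.12) with an adjusted p of 0.108, which fell under 0.05 without Ts65Dn;Df(17)2 replicate 1 (0.0228) or without Dp(16)1/Df(16)8 replicate 7 (0.0332). Next by p came Gipc1, an adaptor gene for receptor traffic, at -0.23 (SE 0.056), Pcdhga2, a clustered protocadherin gene, at 0.51 (SE 0.12), and Dnah6, a dynein heavy chain gene of motile cilia, at -1.56 (SE 0.41), with adjusted p of 0.32, 0.351 and 0.695. Dnah6 varied widely, at 7.23 ± 6.17 CPM in Ts65Dn;Df(17)2 and 22.3 ± 14.5 CPM in Dp(16)1/Df(16)8 (SD, n = 10 each). Crh, the corticotropin-releasing hormone gene of a cortical interneuron class, was at 2.45 ± 0.619 CPM and 3.71 ± 0.465 CPM (SD, n = 10 each), with an adjusted p of 0.695. Fbxo2 and Tmem144 had negative and Tspoap1 and Rbl1 positive differences, with adjusted p from 0.717 to 0.762.

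Gene lists for cell types and for processes that an additional chromosome could touch were compared as counts. Of 685 listed genes tested over 33 lists, 1 was called (Tyr), beside 8 of 16042 (0.0499%) over all genes. With so few calls over all genes, the absence of a call in a list says little about that list. Of the listed differences 345 were positive and 340 negative, beside 8041 positive of 16042 over all genes. In lists tied to chromosome handling, none of 14 mitosis and spindle genes, 24 cohesin, condensin and lamina genes, 23 heterochromatin and DNA methylation genes or 21 DNA damage and p53 target genes was called, with median log2 differences of 0.056, -0.011, 0.012 and -0.027. The smallest p of these lists were those of Birc5, a chromosome passenger gene (-0.52, SE 0.32), Ncapd3, a condensin subunit gene (0.097, SE 0.048), Cbx3, which encodes a heterochromatin protein (0.11, SE 0.049), and Ccng1, a p53 target (-0.29, SE 0.13).

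In lists for protein balance and stress, none of 22 heat shock, 24 unfolded protein response, 31 proteasome and 27 autophagy and lysosome genes was called, with medians of -0.032, -0.076, -0.013 and -0.0044. Differences were negative for 19 of 22 heat shock, 19 of 24 unfolded protein response, 20 of 31 proteasome and 16 of 27 autophagy and lysosome genes. The chaperone gene Calr had the smallest p of the unfolded protein response list, at 252 ± 17.7 CPM against 271 ± 7.54 CPM (SD, n = 10 each). Psmb5, a catalytic proteasome subunit gene, was at 17.1 ± 5.90 CPM against 23.3 ± 4.88 CPM. None of 41 cytosolic ribosomal protein genes, 35 nuclear respiratory chain genes, 10 mitochondrially encoded genes or 19 interferon-stimulated genes was called, and for all 41 ribosomal and all 35 respiratory genes the interval lay within a fold of 1.5.

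Neuronal lists were alike in this respect. None of 27 presynaptic, 31 postsynaptic, 22 immediate early or 27 clustered protocadherin genes was called, with medians of -0.043, -0.012, -0.047 and 0.062. Pcdhga3 had the smallest p of the listed protocadherins, at 0.38 (SE 0.11); Pcdhga2, described above, was not on the list. None of 24 cholesterol synthesis genes was called, while 20 of the 24 had positive differences, the highest 0.164; Hmgcs1, an early enzyme of the pathway, was at 315 ± 16.9 CPM against 296 ± 18.6 CPM. None of 36 genes that are orthologous to human chromosome 21 genes but lie on other mouse chromosomes was called (median 0.026).

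Among cell type markers the sign was shared within some lists, and apart from Tyr none was called. All 16 striatal neuron markers had positive differences (median 0.19), although the median of their summed level was lower in Ts65Dn;Df(17)2, at 2378 CPM against 2511 CPM: Pdyn, with the smallest p, was at 53.6 ± 14.7 CPM and 43.8 ± 25.2 CPM (SD, n = 10 each). Of 20 excitatory cortical neuron markers 15 were negative (median -0.14), with Emx1 at 3.31 ± 1.02 CPM and 4.79 ± 2.87 CPM. Of 9 choroid plexus markers tested 8 were negative (median -0.68); their summed level ran from 186 to 347 CPM in Ts65Dn;Df(17)2 and from 171 to 1344 CPM in Dp(16)1/Df(16)8, with medians of 222 and 231 CPM. Of 16 meningeal and fibroblast markers 14 were positive (median 0.19), with Col3a1 at 17.9 ± 6.96 CPM and 11.5 ± 3.87 CPM. Astrocyte, microglia, endothelial and oligodendrocyte precursor lists had medians between -0.027 and 0.038. The members of a list share the same libraries, so a shared sign within a list is not a count of independent results.

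**Figure D5:**
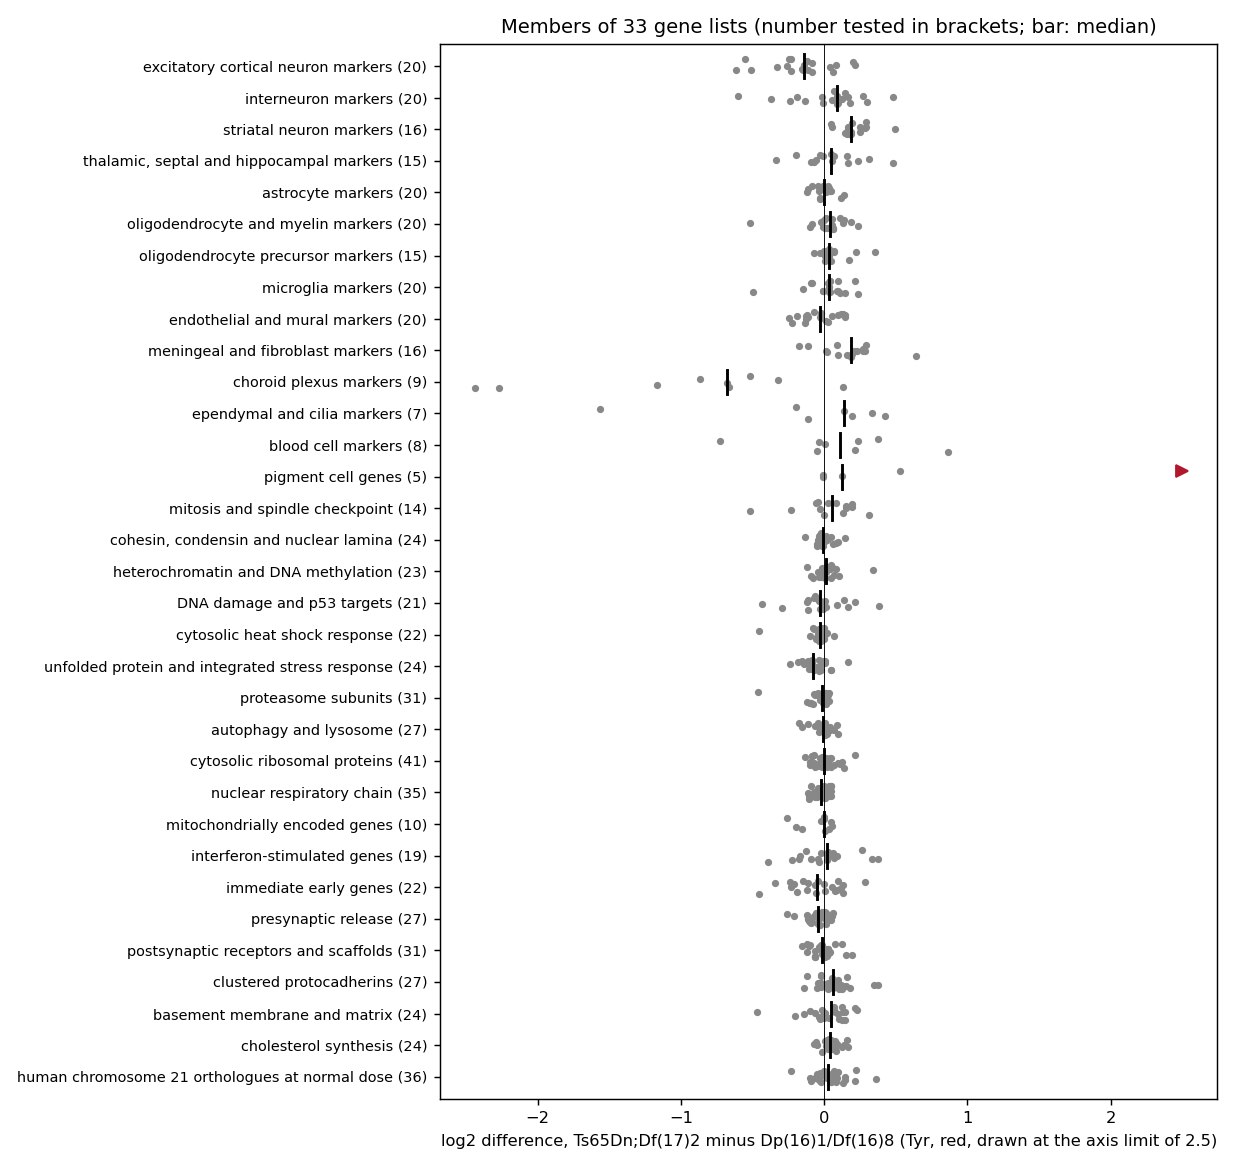
Each point is the log2 difference (Ts65Dn;Df(17)2 minus Dp(16)1/Df(16)8) of 1 tested member of 33 gene lists, with a bar at the list's median. Tyr is the only called member and is drawn at the axis limit, since its value is 4.75; the choroid plexus list has the most negative median, -0.68.

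The difference between the genotypes was also compared between the sexes. No gene passed the test of genotype by sex in 16042 (0%, edgeR's quasi-likelihood test), with 491 at an unadjusted p under 0.05 (3.06%), and DESeq2 called 0. This fit used the labelled sex, so Dp(16)1/Df(16)8 replicate 2 entered as female despite its Y-linked transcripts. The Y-linked genes Kdm5d and Ddx3y were among those with the smallest p. Counting that replicate as male also gave 0 calls. Leaving out Dp(16)1/Df(16)8 replicate 6, a male, gave 2 calls, mt-Rnr1 and mt-Rnr2, the mitochondrial ribosomal RNA genes. Counts of mt-Rnr2 ran from 141 to 14156 across libraries. The lowest were 802, 597 and 141, in the Dp(16)1/Df(16)8 males of replicates 7, 9 and 10, while replicate 6 had 6561. Ribosomal RNA removal was part of the library preparation, and its bearing on these calls was not tested.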

How the data were processed

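RNA from 32 cortices was sequenced after ribosomal RNA removal, from 500 ng total RNA per the labels' protocols. The authors deposited raw read counts per gene; the submitters' processing notes name bcl2fastq 2.20, STAR 2.7.9a, featureCounts, Subread 1.6.4 and the build GRCm38.p6 (and GRCh38). The strand setting, the treatment of multi-mapping reads and the annotation release are not given in the sources used here. Gene names and positions were taken from GENCODE M21 (55141 of 55401 identifiers matched).

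Genes passing edgeR's filterByExpr by genotype (16042) were scaled by TMM and fitted over all 32 libraries with genotype and sex (edgeR 4.0.16, quasi-likelihood test, Benjamini-Hochberg adjustment over all tested genes, threshold 0.05). CPM used TMM-scaled library sizes; log2 CPM a prior count of 2. Region values per animal were compared by a two-sided permutation test (100000 resamples). Sequences were compared with blastn 2.17.0. DESeq2 1.42.0 and limma 3.58.1 were alternatives. The procedure was tested on simulated counts.

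Named genes were the called ones, the 10 plain-named genes next by p, fixed region genes, genes flanking each region, and each list's smallest p; some are not reported here. The comparison, lists and rules were chosen with earlier results of these data known. Replicate numbers follow accession order and pair nothing. Other choices tried were size factors, filters, covariates, number ranges and leaving out each library.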

Additional observations from a re-analysis of the deposited data

Results flagged for a closer look

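Of 44 groups of 10 values examined (the named genes called or next by p, Urb1 and the region folds, in each aneuploid genotype), 5 held an animal whose gap to the nearest other exceeded Dixon's 95% critical value for 10 samples; chance alone flags about 1 in 20 groups. Dnah6 was at 22.9985 CPM in Ts65Dn;Df(17)2 replicate 1, against 2.72 to 9.65 CPM in the other nine. Tyr was at 0.938 CPM in Dp(16)1/Df(16)8 replicate 3, against 0.335 to 0.626 CPM. Crh was at 4.80 CPM in Dp(16)1/Df(16)8 replicate 8, against 3.18 to 4.03 CPM, and Rbl1 at 4.50 CPM in Dp(16)1/Df(16)8 replicate 6, against 1.34 to 2.89 CPM. The median fold of the genes from Mrpl39 to Zbtb21 was 1.05 in Ts65Dn;Df(17)2 replicate 7, against 0.98 to 1.01.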

How the results depend on the processing

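The count of genes called outside the regions was 5 or 6 under all 12 alternatives and 5 to 8 when 1 library was left out, and no gene from Mrpl39 to Zbtb21 was called in any of these 32 fits. Tyr, Gm49806, C87487, Gm28437 and Gm21926 were called in every one. Without a low-count filter B230307C23Rik had an adjusted p of 0.051 and Gm7887 was added; without the animals numbered below 30000 it had 0.132 and Endou was added. Number ranges as terms added Cenpv, and the range holding both genotypes Gm47283. DESeq2 called the same 8 genes. The mean in place of the median gave 0.10 for proximal chromosome 17 (permutation p = 0.00533). When 1 library was left out, the per-animal differences ran from -0.018 to -0.0072 (Mrpl39 to Zbtb21), -0.027 to 0.031 (Lipi to Ncam2) and 0.024 to 0.050 (chromosome 17), and calls of genotype by sex from 0 to 2, the latter without Dp(16)1/Df(16)8 replicate 6. No paired analysis was possible because the replicate numbers follow accession order. Low counts limit Gm49806, C87487 and A730009L09Rik, and the spread of striatal and choroid plexus content limits genes of those tissues.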

Other observations

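Chromosome 6 held 62 genes with an unadjusted p under 0.05 among 860 tested (7.21%), beside 4.1% over all genes but no called gene. Among them were Aass and Dnah6, named above; the chromosome was singled out after its values were seen. On chromosome 16, 32 of 486 genes had such a p (6.58%), and on chromosome X 9 of 506 (1.78%).

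Gm37702 on chromosome 1 was the only gene without overlap between the genotypes that was not called: 4.02 to 6.55 CPM in Ts65Dn;Df(17)2 against 2.25 to 3.81 CPM in Dp(16)1/Df(16)8, with an adjusted p of 0.882 (quasi-likelihood test in edgeR) and 1.98 to 6.00 CPM in +/+. In all, 6 of 16042 genes had no overlap (0.0374%).

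Gm15446, the gene most like B230307C23Rik by sequence (932 of 1125 aligned bases identical), differed in the opposite direction, at 16.0 ± 4.60 CPM in Ts65Dn;Df(17)2 and 21.2 ± 2.96 CPM in Dp(16)1/Df(16)8 (SD, n = 10 each; adjusted p = 0.762, quasi-likelihood test in edgeR).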
